A study of Mus musculus with 3 samples.

Results

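Genes of mitosis, the cyclins and their kinases, kinesins, tubulins and genes with related names were compared between mouse liver and a pool of cell lines. Probes were taken by the gene symbol of the platform annotation: those with 1 symbol that begins with Cdk, Cdc, Kif, Nek or Smc and a digit, with a cyclin name (Ccn, a letter and a digit), with Cenp, Bub, Mad2, Aurk, Plk, Ncap, Stmn, Tuba, Tubb, Tubg, Birc5, Cks or Cdkn2, or that is Pbk. This gave 237 of the 12336 probes with 1 symbol (of 16273 in all) and 123 of 7984 gene symbols. No probe with a symbol beginning with Birc5 was found.

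Liver total RNA, bought as a catalogue product, was labelled with Cy5 on each of 3 arrays of 2 colours. Universal Mouse Reference RNA (UMRR), sold as a mixture of RNA from several cultured mouse lines for use as an array standard, was labelled with Cy3 on the same arrays. Both RNAs were amplified once into cRNA. The labels give no strain, age, sex or genotype for the liver, and the dyes were never swapped, so that each ratio also holds any dye bias. The labels name 1 product for each RNA, so the p-values cover array-to-array spread only, which may be technical, and say nothing of variation among livers.

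Cells that divide switch on a set of genes in waves. Cyclin-dependent kinases (CDKs) bound to cyclins drive the cycle, the spindle of microtubules with its motor proteins moves the chromosomes, and the anaphase-promoting complex ends mitosis by marking cyclins for breakdown. Most hepatocytes of an adult liver are out of the cycle, while cell lines in culture divide. Many members of the same families do not serve division: some cyclins and CDKs act in transcription, many kinesins carry cargo along microtubules, and several genes named Cdc after yeast mutants act in signalling or protein folding.

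The values are deposited signed log ratios of the dyes, read as log2 of liver over UMRR. The base is not stated, and read as natural logs every log2 value would be 1.44 times as large. The direction was set by hepatocyte secretory genes: 4 of the 6 such genes on the array had a ratio on all arrays, with means of 4.01 to 5.17, and positive was therefore read as higher in liver. An exact 0 was read as no ratio and made up 32.2%, 23.5% and 29.6% of all values on arrays 1, 2 and 3. Array 1 stood apart: the SD of the difference between arrays over the members tested was 0.40 for arrays 1 and 2, 0.40 for arrays 1 and 3, and 0.22 for arrays 2 and 3. The number of arrays limits the precision, and with no intensities a ratio near 0 does not tell equal levels from signals too weak to compare.

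Of the 123 symbols, 81 had a probe with a ratio on all 3 arrays and were tested. The best probe had a ratio on 2 arrays for 13 symbols, on 1 array for 7 and on none for 22. A gene entered the test by having a ratio on every array, so the 81 do not stand for all members. Of the 81 genes, 52 were lower in liver, 13 were higher and 16 did not pass (limma, Benjamini-Hochberg over 5520 genes, adjusted p under 0.05). Over all genes tested, 33.9% were lower and 30.1% higher, or 64.0% in either direction. The median log2 ratio of the members was -0.62, against -0.028 over all genes tested.

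Genes bound to division were the lowest members as a group, but the other members leaned the same way. Of the 59 members tested outside the dividing-cell list described next, 33 were lower (55.9%), 13 were higher and 13 did not pass. Their median log2 ratio was -0.44, and over all genes tested 33.9% were lower. A list of 43 genes that are known to be expressed mainly in dividing cells had 22 members tested. Of these, 19 were lower in liver, 0 were higher and 3 did not pass. Their median log2 ratio was -2.21, and they ran from -4.15 up to 0.16. A list of 13 cyclins and kinesins that resting cells also use, such as cyclins of transcription and transport kinesins, had 10 members tested. Of these, 5 were lower, 4 were higher and 1 did not pass. Their median was -0.42, and they ran from -2.07 up to 1.84. A ratio at least 2-fold lower on every array, counted without a test, was found for 15 of the 22 dividing-cell genes and for 1 of the 10 resting-cell genes, against 9.53% of all genes tested. A ratio at least 2-fold higher on every array was found for 0 of the 22 and for 1 of the 10, against 9.46%.

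The median of the dividing-cell genes lay below that of the resting-cell genes on every array, by -1.69, -2.13 and -2.10 on arrays 1, 2 and 3. No resting-cell gene had a mean below the dividing-cell median, and 14 of the 22 dividing-cell genes lay below the lowest resting-cell gene, Kif2a. Both lists were compiled with earlier results of these arrays known, so their medians are a description and no test of the difference between them was made. The dividing-cell ratios were mostly nearer to 0 on array 1, and 17 of the 22 genes were lower on arrays 2 and 3 than on array 1. Of all genes tested, 43.2% were lower on arrays 2 and 3 in this way, but that share covers ratios of both signs. Distance from 0 was not counted over all genes, so the pattern is not shown to be particular to dividing-cell genes. Without array 1 the difference of the medians was -2.09, against -1.79 over all arrays. In RNA of whole tissue and of pooled cell lines, fewer dividing cells and less of a transcript per cell cannot be told apart.

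**Figure D1:**
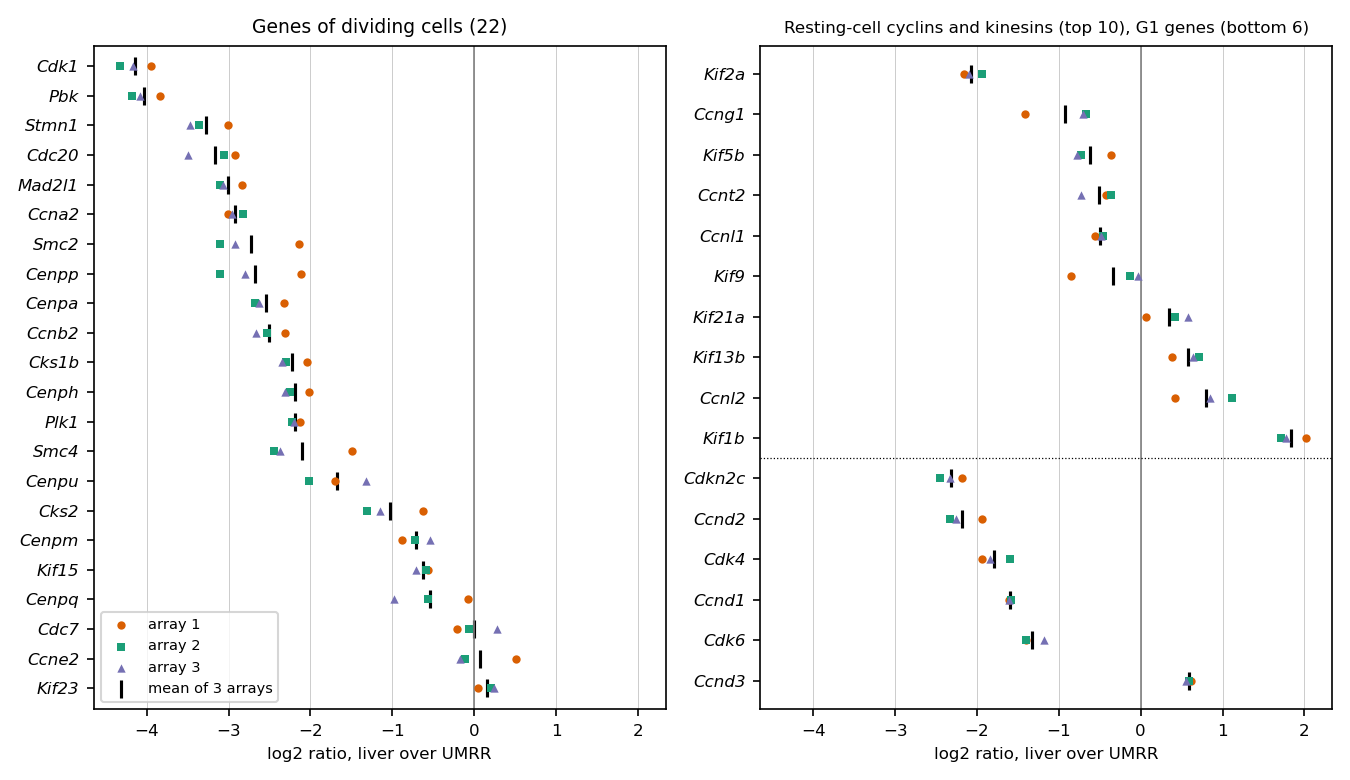
Log2 ratio of liver over UMRR for each of the 3 arrays (coloured points) and their mean (black bar), for the 22 dividing-cell genes on the left, and on the right for the 10 resting-cell cyclins and kinesins above the dotted line and the 6 genes of G1 below it. Most dividing-cell genes lie between -4.15 and -1.03, while the resting-cell genes lie on both sides of 0.

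**Figure D2:**
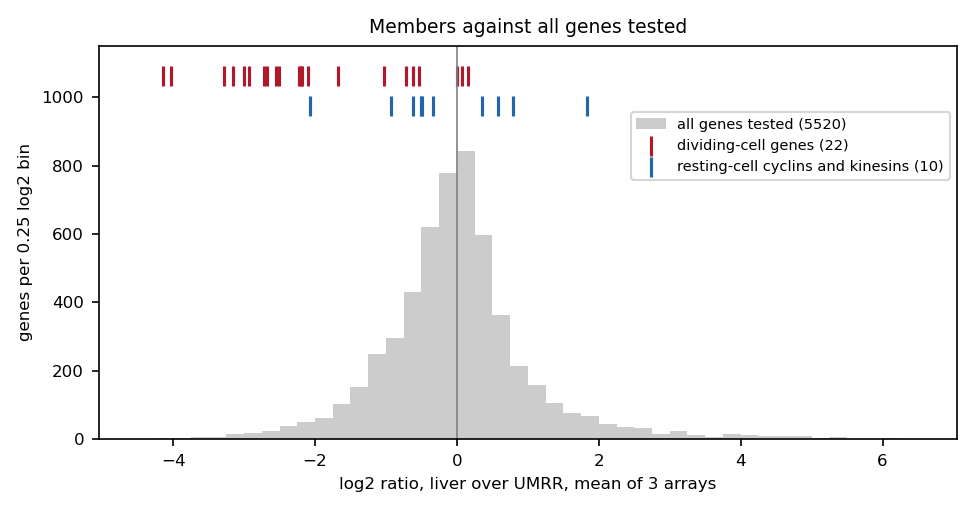
Histogram of the mean log2 ratio of liver over UMRR for the 5520 genes tested, in bins of 0.25, with a tick for each of the 22 dividing-cell genes (red) and the 10 resting-cell cyclins and kinesins (blue). The ticks of the dividing-cell genes reach from 0.16 down to -4.15 with a median of -2.21, and all genes tested have a median of -0.028.

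The kinase of mitosis and its partners were far lower in liver. Cdk1, whose activity starts mitosis, stood at -3.94, -4.33 and -4.16 on arrays 1, 2 and 3. Its mean of -4.15 ± 0.19 (SD, n = 3 arrays) is 17.7-fold lower in liver (adjusted p = 2.57e-06), with a rank of 2 from the lowest of all 5520 genes. Cyclin A2 (Ccna2), which binds Cdk1 and Cdk2 in S phase and early mitosis, stood at -3.00, -2.82 and -2.95 as the average of 3 probes, 7.60-fold lower. Cyclin B2 (Ccnb2), a mitotic cyclin, stood at -2.31, -2.53 and -2.67, or 5.68-fold lower. The ratios of these 3 genes did not come within 2 log2 units of 0 on any array.

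The small CDK-binding proteins Cks1b and Cks2 were lower too, to different extents. Cks1b stood at -2.04, -2.30 and -2.34, a mean of -2.23 ± 0.16. Cks2 stood at -0.63, -1.31 and -1.15, a mean of -1.03 ± 0.36 (adjusted p = 0.00124), and array 1 gave its smallest difference. Both genes that did not pass here act earlier in the cycle. Cdc7, a kinase that fires origins of replication, stood at -0.21, -0.065 and 0.27, and cyclin E2 (Ccne2), a partner of Cdk2 at the start of S phase, at 0.51, -0.12 and -0.18, so both had values on either side of 0. The other genes of this group, Ccne1, Cdc6, Cdc25a, Cdc25b and Cdc25c, were listed at exact 0 on every array on all their probes.

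The promoters of the dividing-cell and resting-cell genes tested were read for short motifs, whatever the ratio of the gene. Windows of 250 bases before to 50 bases after the annotated start (RefSeq, GRCm38.p6) were found for 17 of the 22 dividing-cell genes and 8 of the 10 resting-cell genes. They were searched on both strands for TTTGAA or TTCGAA, the letters of the cell cycle genes homology region (CHR) through which many mitotic genes are kept silent in resting cells, and for CCAAT, the box bound by the activator NF-Y. A CHR match was held by 11 of 17 dividing-cell genes (64.7%) and 0 of 8 resting-cell genes, against 18.1% of the 4449 genes tested on the arrays that have a window. A CCAAT match was held by 13 of 17 (76.5%) and 4 of 8 (50%), against 42.2%. Both were held by 9 of 17 dividing-cell genes (52.9%), against 8.43%. A gene with several windows counted once if any held the letters, no CHR match overlapped a CCAAT match in the windows of both lists, and a match of letters is not a bound site.

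The windows below are shown for 5 dividing-cell genes with both motifs, for Mad2l1, which was as low in liver with neither, and for Ccnl2, a resting-cell cyclin that was higher in liver. They run 5′ to 3′ on the strand of the gene, and capitals mark each match to the CHR letters or the CCAAT box on either strand.
Cdk1 (chr10:69352863-69353162, minus strand): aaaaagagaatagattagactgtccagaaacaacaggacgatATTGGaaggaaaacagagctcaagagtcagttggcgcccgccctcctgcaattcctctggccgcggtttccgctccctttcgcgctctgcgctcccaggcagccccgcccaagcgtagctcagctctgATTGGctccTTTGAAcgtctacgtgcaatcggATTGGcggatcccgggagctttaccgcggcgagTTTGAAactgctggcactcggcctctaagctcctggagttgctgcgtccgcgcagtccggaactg
Ccnb2 (chr9:70421505-70421804, minus strand): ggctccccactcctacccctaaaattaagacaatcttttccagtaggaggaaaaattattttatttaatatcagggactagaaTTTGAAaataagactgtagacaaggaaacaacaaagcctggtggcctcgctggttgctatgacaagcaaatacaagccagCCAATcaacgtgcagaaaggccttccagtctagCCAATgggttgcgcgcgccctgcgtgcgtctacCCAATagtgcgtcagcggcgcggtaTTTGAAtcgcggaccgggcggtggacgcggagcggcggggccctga
Cdc20 (chr4:118437294-118437593, minus strand): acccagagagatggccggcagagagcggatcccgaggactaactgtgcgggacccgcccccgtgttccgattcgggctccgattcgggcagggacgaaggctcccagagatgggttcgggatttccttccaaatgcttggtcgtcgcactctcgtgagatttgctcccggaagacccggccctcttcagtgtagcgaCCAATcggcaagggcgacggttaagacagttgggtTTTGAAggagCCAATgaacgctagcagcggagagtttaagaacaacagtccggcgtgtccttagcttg
Cks1b (chr3:89418242-89418541, minus strand): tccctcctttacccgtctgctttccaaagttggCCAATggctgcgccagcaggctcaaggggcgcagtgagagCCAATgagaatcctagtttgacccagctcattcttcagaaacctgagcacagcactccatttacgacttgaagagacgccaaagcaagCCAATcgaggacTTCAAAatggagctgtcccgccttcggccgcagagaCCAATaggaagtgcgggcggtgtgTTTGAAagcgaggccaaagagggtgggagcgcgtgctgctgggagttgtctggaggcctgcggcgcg
Plk1 (chr7:122159185-122159484, plus strand): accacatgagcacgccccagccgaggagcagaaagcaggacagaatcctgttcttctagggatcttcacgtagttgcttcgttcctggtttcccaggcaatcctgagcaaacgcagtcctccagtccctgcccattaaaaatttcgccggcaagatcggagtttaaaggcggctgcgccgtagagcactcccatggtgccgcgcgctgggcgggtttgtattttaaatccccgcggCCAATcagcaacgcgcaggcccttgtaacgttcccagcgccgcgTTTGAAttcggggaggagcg
Mad2l1 (chr6:66534971-66535270, plus strand): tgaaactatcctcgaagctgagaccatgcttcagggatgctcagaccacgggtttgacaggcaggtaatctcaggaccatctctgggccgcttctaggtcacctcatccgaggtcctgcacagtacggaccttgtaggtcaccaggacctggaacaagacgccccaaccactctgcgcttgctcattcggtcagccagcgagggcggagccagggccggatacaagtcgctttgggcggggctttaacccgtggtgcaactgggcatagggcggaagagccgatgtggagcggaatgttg
Ccnl2 (chr4:155812239-155812538, plus strand): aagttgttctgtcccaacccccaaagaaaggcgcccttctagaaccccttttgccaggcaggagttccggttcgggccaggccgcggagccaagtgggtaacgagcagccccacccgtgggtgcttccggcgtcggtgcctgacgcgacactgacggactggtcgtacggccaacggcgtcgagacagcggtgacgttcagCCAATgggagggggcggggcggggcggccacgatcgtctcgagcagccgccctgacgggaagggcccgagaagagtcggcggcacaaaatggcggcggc

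In Cdk1, Cdc20 and Cks1b a TTTGAA began 15, 18 and 17 bases before the annotated start, and in Ccnb2 and Plk1 it began 4 and 30 bases after it. The Cdk1 window held 2 TTTGAA and 3 CCAAT boxes, the boxes all on the opposite strand. The match did not follow the ratio gene by gene. Kif23 held both motifs and had a mean of 0.16, and Cdc7 held a TTTGAA without a CCAAT and had ratios near 0. Mad2l1 and Cenpp held neither motif and had means of -3.01 and -2.67.

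Genes of the spindle checkpoint and of the anaphase-promoting complex were next. Cdc20, which activates the complex, stood at -2.92, -3.06 and -3.50 on arrays 1, 2 and 3, a mean of -3.16 ± 0.30 (SD, n = 3) or 8.95-fold lower in liver. Mad2l1, the checkpoint protein that holds Cdc20 back, stood at -2.84, -3.11 and -3.07, a mean of -3.01 ± 0.14 or 8.04-fold lower. A further Mad2l1 probe stood at -1.06 and -1.39 on arrays 1 and 2. Their relatives lay nearer to 0. Mad2l2, a subunit of a DNA repair polymerase, had a mean of -0.36 ± 0.21 (adjusted p = 0.0312, and 0.122 without array 3). Mad2l1bp, which takes Mad2l1 off its partners, was higher in liver at 0.76 ± 0.12. Bub3, a checkpoint protein, had values on arrays 2 and 3 alone, at -0.79 and -0.85. Cdc26, a core subunit of the complex, did not pass (0.24 ± 0.16, adjusted p = 0.0881), and Cdc16, another, had -1.25 and -1.003 on arrays 1 and 3.

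The mitotic kinases with a ratio were low in liver. Pbk, a kinase active in mitosis, stood at -3.84, -4.17 and -4.08, 16.4-fold lower and next after Cdk1 among all genes. Plk1, the polo-like kinase that acts from mitotic entry to cell separation, stood at -2.13, -2.22 and -2.20, 4.55-fold lower with a spread of 0.051 between arrays. Plk4, which starts centriole duplication, had -2.31 and -2.99 on arrays 1 and 3 and no ratio on array 2. Aurka and Aurkb, the Aurora kinases, and Bub1, a checkpoint kinase, were listed at exact 0 on every array.

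Plk2, a polo-like kinase induced by growth signals and stress and not placed in the dividing-cell list, was as low as these, at -3.54, -3.31 and -3.64, or 11.3-fold lower (adjusted p = 3.46e-06). The Nek kinases, relatives of a fungal mitotic kinase, had ratios of both signs. Nek6 was higher at 0.45 ± 0.032 (adjusted p = 0.0053, and 0.0684 without array 3). Nek8, a kinase of cilia, stood at 0.26 ± 0.12 and did not pass (adjusted p = 0.0549), though it did without array 1 (0.00862). Nek7 stood at -0.24 ± 0.24 and did not pass (adjusted p = 0.119), though it did without array 1 (0.00336). Nek4 had 1.39 on both arrays 1 and 2 and no ratio on array 3.

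The kinetochore is the plate that ties a chromosome to the spindle. Transcripts of centromere and kinetochore proteins were lower for 7 of 9 genes tested, against 33.9% of all genes tested. Cenpa, the histone variant that marks the centromere, stood at -2.32, -2.68 and -2.63 on arrays 1, 2 and 3 (5.83-fold lower). Cenpp stood at -2.12, -3.11 and -2.79 and Cenpu at -1.71, -2.02 and -1.32; both are subunits of the inner kinetochore. Cenps, which also serves DNA repair, had a mean of -1.54 ± 0.11 (SD, n = 3). Smaller differences were found for Cenpm (-0.72 ± 0.17) and Cenpq (-0.54 ± 0.45, adjusted p = 0.0344). Further probes of Cenpq stood at -1.97 and -2.12 on arrays 1 and 2, at -2.41 on array 2 and at 0.38 on array 1. Cenpq did not pass without array 2 (adjusted p = 0.0789) or array 3 (0.2). Cenpc1, which bridges centromeric chromatin and the outer kinetochore, went the other way at 1.08, 1.50 and 1.11, or 2.34-fold higher in liver on 1 probe, while its second probe had no ratio. Cenpv, a centromere protein, stood at 0.36, 0.40 and -0.25 and did not pass (adjusted p = 0.362).

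Several kinetochore genes had ratios on fewer arrays. Cenpl stood at -1.88 and -2.38 on arrays 2 and 3, a probe of Cenpw at -1.66 and -2.13 on arrays 1 and 2, and Cenpf, a large protein of the outer kinetochore, at -3.13 on array 2. Each of these values lay below 0. The 2 probes of Cenpo had 1 ratio each, at 0.077 on array 2 and -0.23 on array 3.

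Condensin, the ring that compacts chromosomes for mitosis, had ratios below 0 in every subunit with a value. Smc2, one of its ATPases, stood at -2.14, -3.11 and -2.92 (6.60-fold lower, as the average of 2 probes), and another probe stood at -3.36 and -3.54 on arrays 2 and 3. Smc4, the other ATPase, stood at -1.50, -2.44 and -2.38 (4.30-fold lower). Array 1 gave the smallest difference for both, and the spread between arrays was wide (SD of 0.51 and 0.53). Ncapg, a further subunit, had no ratio on array 1 and stood at -4.56 and -4.49 on arrays 2 and 3, and the first of these is the lowest value of any probe on array 2. Ncapd2 stood at -2.91 and -2.84 on the same arrays and Ncaph2 at -0.33 on array 2, while Ncapd3 and Ncapg2 were at exact 0 throughout.

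Cohesin, the related ring that holds sister chromatids together and also shapes chromatin in resting cells, was lower in liver in both subunits tested. Smc3 stood at -2.03, -2.19 and -2.19 (4.40-fold lower). Smc1a stood at -1.29, -1.30 and -1.36 (2.49-fold lower) on 1 probe. Other probes of Smc1a stood at -1.74 and -2.05 on arrays 2 and 3 and at -1.32 on array 2. Smc6, of the third ring of the family, which serves DNA repair, had a mean of -1.16 ± 0.081 over 7 probes. All 3 were called lower, against 33.9% of all genes tested. The arrays were closely alike for each, but the single probes of Smc6 ran from -1.95 to -0.44.

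Of the 5 mitotic kinesins on the array, 2 were tested. Kif15, which slides spindle microtubules apart, stood at -0.57, -0.59 and -0.71 on 1 probe, and its other probe stood at -2.26 and -1.96 on arrays 2 and 3. Kif23, a motor of the midbody where daughter cells separate, stood at 0.041, 0.21 and 0.24 on its 1 probe and did not pass (adjusted p = 0.183), though it did without array 1 (0.0372). Kif18b had -0.92 and -1.27 on arrays 1 and 2 and Kif22, which moves chromosome arms, had -2.54 on array 2, while Kif20a had no ratio.

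Of 6 transport kinesins tested, 3 were higher, 2 were lower and 1 did not pass, against 33.9% lower and 30.1% higher over all genes tested, so the count does not set them apart; their median was 0.0066. Kif1b, a carrier of mitochondria and synaptic vesicle precursors, was the highest member in liver, at 2.02, 1.71 and 1.78 (3.57-fold higher, adjusted p = 2.44e-05). Kif13b, a carrier of membrane cargo, was higher at 0.58 ± 0.17 (SD, n = 3). Kif21a was higher at 0.35 ± 0.26 (adjusted p = 0.0467), which no longer passed without array 2 (0.166) or array 3 (0.313). On the lower side, Kif5b, the heavy chain of conventional kinesin, stood at -0.62 ± 0.23 and Kif2a at -2.16, -1.94 and -2.10 (4.19-fold lower). Kif2a takes microtubules apart in neurons and also at spindle poles, so it also serves division. Without it, an alternative chosen after its value was seen, the resting-cell median was -0.34. Kif9, a kinesin of cilia and sperm tails, stood at -0.85, -0.13 and -0.036 and did not pass. Of kinesins in neither list, Kif2b did not pass (-0.030 ± 0.10, adjusted p = 0.802) and Kif24 had -0.90 and -0.51 on arrays 2 and 3. Kif12, of the resting list, had no ratio.

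Of 4 cyclins outside the core cycle tested, 3 were lower and 1 was higher, with means from -0.93 to 0.79. Over all genes tested 33.9% were lower and 30.1% higher. Ccnl2, which acts with CDKs in splicing, was higher in liver at 0.42, 1.12 and 0.84, a mean of 0.79 ± 0.35 (SD, n = 3). Its close relative Ccnl1 was lower at -0.50 ± 0.051 over 4 probes of 1 sequence record. Ccnt2, a partner of Cdk9 in transcript elongation, was lower at -0.51 ± 0.19 (adjusted p = 0.00755), a call lost without array 3 (0.0917). Ccng1, a target of p53, stood at -1.41, -0.67 and -0.70, with array 1 farthest from 0. Its relative Ccng2 had -0.29 and -0.23 on arrays 2 and 3, and Ccnt1 had no ratio. Each of these cyclins lay closer to 0 than Ccna2 and Ccnb2.

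The genes of G1, the phase in which a cell commits to divide, were lower for 5 of 6 members tested, with a median of -1.70. Of all genes tested, 33.9% were lower. Cyclin D1 (Ccnd1) stood at -1.60, -1.58 and -1.61 on arrays 1, 2 and 3 (3.03-fold lower), and cyclin D2 (Ccnd2) at -1.94, -2.34 and -2.25 (4.52-fold lower). Their kinases Cdk4 (-1.80 ± 0.18, SD, n = 3) and Cdk6 (-1.33 ± 0.13) were lower as well. Cdkn2c, an inhibitor of these same kinases, was lower too, at -2.18, -2.45 and -2.33 (4.99-fold lower). The inhibitor and its target kinases thus had ratios of 1 sign.

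Cyclin D3 (Ccnd3) was the exception and its probes disagreed. Its average stood at 0.62, 0.59 and 0.55 and was called higher in liver (adjusted p = 0.00166). This average joined 2 probes of one sequence record at 1.16 and 1.37 with a probe of another record at -0.77. Both other spots of the first record had a ratio on array 2 alone, at 1.25 and 1.27. The small spread between arrays of the average (SD 0.035) therefore does not describe how well the gene is known.

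Tubulins, which form the microtubules of every cell, were lower in liver for 6 of 7 alpha and beta isotypes, against 33.9% of all genes tested. Tubb5, the beta-tubulin common in growing cells, stood at -2.02, -2.00 and -2.04 as the average of 8 probes that lay between -2.18 and -1.80 (4.06-fold lower). Tubb6 was as low, at -2.15, -1.87 and -1.82. Tubb3, an isotype known from neurons, stood at -0.84, -0.74 and -0.62. Tubb4b stood at -1.35, -0.48 and -0.55 and Tuba8 at -1.48, -0.42 and -0.79, each with array 1 farthest from 0, and neither passed without moderation of the variance (adjusted p = 0.158 and 0.154). Tuba1c stood at -1.55, -1.16 and -1.22, and Tuba1a had -1.58 and -1.35 on arrays 1 and 2. Tubb4a had -0.87 on array 2 and Tubb2b had no ratio.

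Tubb1, the beta-tubulin of platelets and their precursors, was the tubulin that went against the rest, at 0.78, 1.04 and 0.57 (1.74-fold higher, adjusted p = 0.00145). Of a list of erythroid genes, 3 of 5 tested were higher in liver, against 30.1% of all genes tested, with means from 0.22 to 4.94 over the 5. Those higher were the globin genes Hba-a1, Hba-a2 and Hbb-bh1, while Epor (0.22) and Slc4a1 (0.28) did not pass. Whether blood in the liver RNA bears on Tubb1 was not tested. Tubulin genes are alike in sequence, so that a probe can take up RNA of another isotype, which makes single isotypes uncertain. The gamma-tubulin ring, which seeds microtubules, was lower for 3 of 3 genes by small amounts, against 33.9% of all genes tested. Tubgcp2 stood at -0.78 ± 0.12 (SD, n = 3), Tubgcp4 at -0.59 ± 0.14 and Tubg1 at -0.41 ± 0.058. Tubg1 did not pass without array 2 (adjusted p = 0.059) or array 3 (0.0623).

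The stathmins bind tubulin dimers and destabilise microtubules, and 2 of the 4 were tested. Both were lower in liver, against 33.9% of all genes tested. Stmn1, the form of growing cells, stood at -3.00, -3.36 and -3.47 (9.71-fold lower), and a further probe stood at -3.57 and -3.30 on arrays 2 and 3. Another Stmn1 probe stood nearer to 0, at -1.87 on array 1, and the last was at exact 0 throughout. Stmn2, the form known from neurons, was nearly as low at -2.87, -3.03 and -2.86 (7.57-fold lower). Of 3 other neuronal genes tested, 2 were higher in liver and 1 did not pass, with means from -0.020 to 0.99. Over all genes tested 30.1% were higher. Stmn3, another neuronal form, had 0.057 and -0.00071 on arrays 1 and 2, and Stmn4 had -0.53 on array 2.

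**Figure D3:**
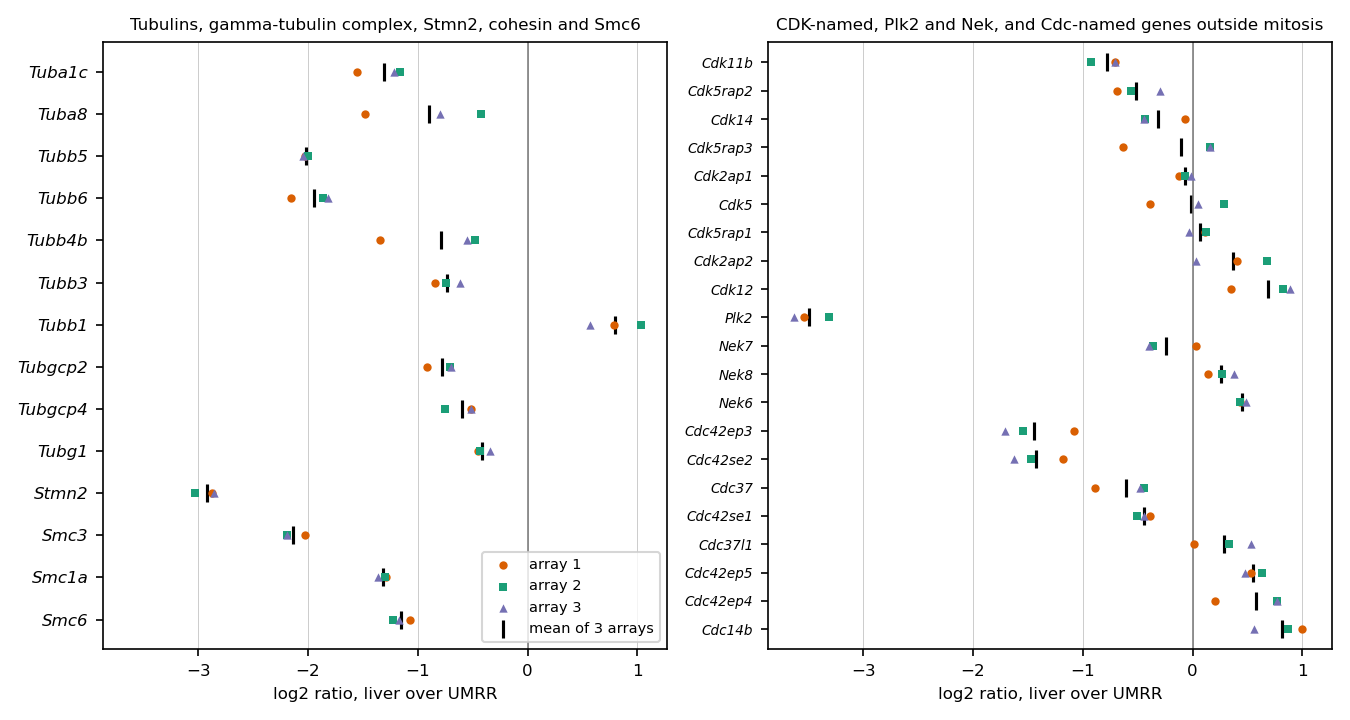
Log2 ratio of liver over UMRR for each of the 3 arrays (coloured points) and their mean (black bar). On the left are the tubulins, the gamma-tubulin complex, Stmn2, cohesin and Smc6, where Tubb1 lies above 0 and the others below; on the right are genes that share a CDK, Plk, Nek or Cdc name but do not serve mitosis alone, where Plk2 at -3.50 stands apart from the rest.

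Genes that share a name with the cell cycle kinases but serve other tasks were close to 0. Of 9 such CDK-named genes tested, 3 were lower, 1 was higher and 5 did not pass, against 33.9% lower and 30.1% higher over all genes tested. The count of lower genes does not set them apart, and their median was -0.067. Cdk12, a kinase of transcript elongation, was higher at 0.35, 0.82 and 0.89. Cdk11b, which acts in transcription and splicing, was lower at -0.71, -0.92 and -0.71. Cdk5rap2, a protein of the centrosome, was lower at -0.52 ± 0.20 (SD, n = 3). Cdk14 passed narrowly (-0.31 ± 0.21, adjusted p = 0.04998) and not without array 2 (0.23) or array 3 (0.295). Cdk2ap2 did not pass (0.37 ± 0.32, adjusted p = 0.0559), though it did without array 3 (0.0336).

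Of 8 genes with Cdc names outside mitosis, 4 were lower, 3 were higher and 1 did not pass, against 33.9% lower and 30.1% higher over all genes tested. Their median was -0.075. The gene that did not pass was Cdc37l1, a relative of Cdc37 (0.29 ± 0.26, adjusted p = 0.0841), which passed without array 1 (0.00288). Effectors of the small GTPase Cdc42 went both ways. Cdc42ep3 stood at -1.08, -1.54 and -1.71 and Cdc42se2 at -1.18, -1.47 and -1.62, whereas Cdc42ep5 was higher at 0.55 ± 0.079. Cdc42ep4 was higher at 0.58 ± 0.32 and did not pass without array 2 (adjusted p = 0.0531) or array 3 (0.0683). Its probes had means of 1.16 and 0.0015, so the average describes neither. Cdc42se1 was lower at -0.44 ± 0.06, lost without array 2 (0.0523) and array 3 (0.0634). Cdc37, which brings kinases to the chaperone Hsp90, was lower at -0.60 ± 0.25. Cdc14b, a phosphatase whose yeast relative ends mitosis, was higher at 0.81 ± 0.23. These names alone did not place a gene with the mitotic members.

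Mitotic genes with other names were looked up in a further list. Of its 32 genes on the array 14 were tested, and 13 were lower, 0 higher and 1 did not pass. Over all genes tested 33.9% were lower and 30.1% higher. The median of the 14 genes was -1.84. The lowest were Racgap1, which acts in cell separation (-2.86 ± 0.17, SD, n = 3), Pttg1 or securin, which guards sister chromatid cohesion (-2.82 ± 0.26), and Cdca3 (-2.70 ± 0.20), a trigger of mitotic entry. The highest were Wee1, the kinase that holds Cdk1 inactive (0.15 ± 0.12, adjusted p = 0.21, with -0.79 for another probe on array 2), and Zwint, a kinetochore protein (-0.34 ± 0.11, adjusted p = 0.02, with 0.81 for another probe on array 1). Zwint lost its call without array 2 (0.154) and array 3 (0.109). Mki67, a widely used proliferation marker, was at exact 0.

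Regulators that keep cells out of the cycle were of both signs, with 2 of 5 lower, 2 higher and 1 not past the test, against 33.9% lower and 30.1% higher over all genes tested, so the count does not set them apart. Rbl1, a pocket protein that is itself raised in cycling cells, was lowest at -2.30 ± 0.30 (SD, n = 3), and Rb1, the retinoblastoma protein, stood at -1.65 ± 0.21, with 1.31 for another probe on array 2. E2f4, the E2F factor of resting cells, was higher at 0.67 ± 0.083, as was Cdkn1c, an inhibitor of CDKs, at 1.14 ± 0.16. Lin37, of the complex that silences mitotic genes through the CHR, stood at 0.15 ± 0.15 (adjusted p = 0.248, and 0.0314 without array 1). Cdkn1a, another CDK inhibitor, had -1.12 and -1.26 on arrays 2 and 3. Markers of cell types other than hepatocytes also differed between the RNAs: 3 of 4 fibroblast genes and 2 of 3 lymphocyte genes were lower in liver while the fourth and the third, Lum (2.08) and Ighm (1.65), were higher, and 9 of 10 genes of pancreatic acinar cells were higher. Their part in the ratios of the mitotic genes was not tested.

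Distances between probes of 1 gene were taken over probes with a ratio on every array only. Probes with fewer ratios are left out of them, and some lay far from the tested probes, as given above for Kif15 and Mad2l1. Of the 81 genes, 28 had at least 2 probes with a ratio on every array, and the median distance between the highest and the lowest probe was 0.45. The probes of 5 genes lay at least 1 log2 unit apart, and those of 3 genes lay on both sides of 0. The widest was Cenph, a subunit of the inner kinetochore, whose 4 probes stood at -3.64, -3.04, -1.60 and -0.49, so that its mean of -2.19 describes none of them. Smc6 reached from -1.95 to -0.44, and 4 of its probes belong to 1 sequence record and still spread over 0.74. The mean of Cdk4 leaves out a probe that stood at 1.46 and 1.65 on arrays 1 and 2, against -1.80 for the probes with a ratio on every array.

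**Figure D4:**
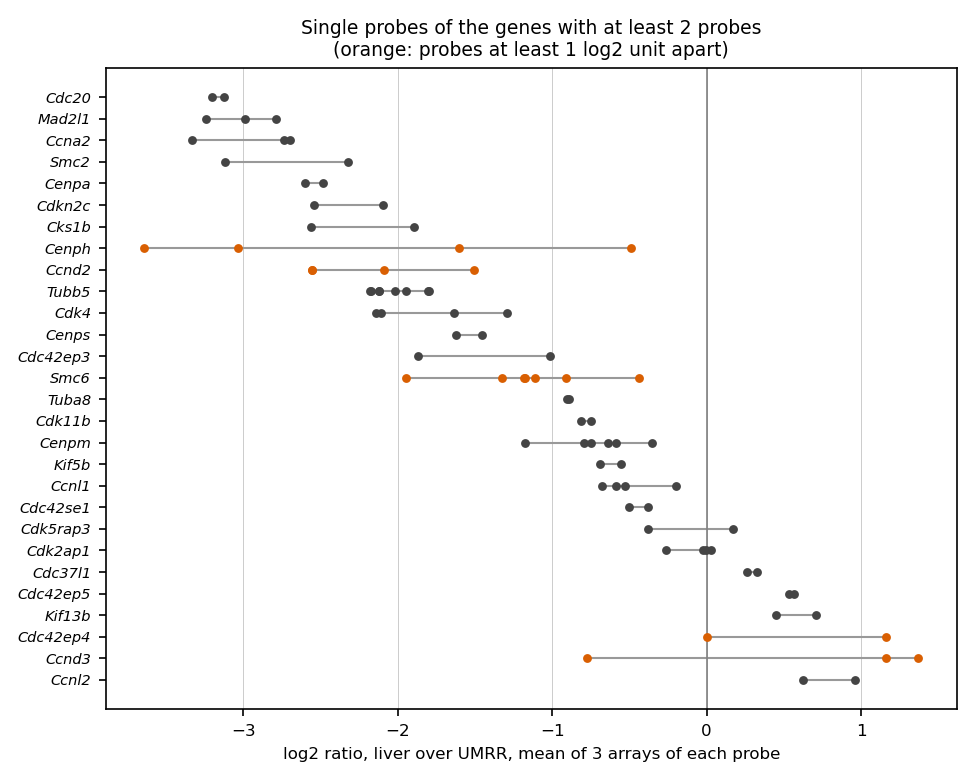
Mean log2 ratio of liver over UMRR of each probe (points) for the 28 genes with at least 2 probes that have a ratio on all 3 arrays, joined by a line per gene. Cenph, Ccnd2, Smc6, Cdc42ep4 and Ccnd3, in orange, have probes at least 1 log2 unit apart, and Ccnd3 has probes on both sides of 0.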

How the data were processed

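Liver and UMRR were compared on 3 arrays of 2 colours. The authors deposited 1 signed log ratio per probe and array, with base and direction not stated; these deposited values were read as log2. The sources used here do not name the scanner, background correction, dye normalization or filters. Probes were named from the platform annotation, and all 123 member symbols matched the reference gene table (GRCm38.p6, names only) by gene identifier. Probes with a ratio on all 3 arrays were averaged per gene and array, which gave 5520 genes. The mean ratio of each gene was modelled in R 4.3.3 with limma 3.58.1 (lmFit, then eBayes), tested two-sided against 0 and adjusted by Benjamini-Hochberg over all genes, with a threshold of 0.05. The fit was tested on simulated data. The members and the lists were chosen with earlier results of these data known. Up to 4 lowest and 3 highest members of each role, all cyclins, kinesins and tubulins tested, and the 3 lowest and 2 highest genes of both further lists were named; any other name was picked with its value known. The alternatives were centring, scaling, leaving out arrays, the treatment of exact zeros, the probe summary, the variance moderation, block medians of 500 probe numbers, removal of noisy probes (SD above the 95th percentile), thresholds and the log base.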

Additional observations from a re-analysis of the deposited data

How the results depend on the processing

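Each ratio already pairs liver with UMRR on the same array, and no further pairing was possible because the arrays form 1 group. Of 87 named genes, 29 kept direction and side of the threshold under every alternative. Of 1302 gene results under the alternatives, 1163 kept both, 116 lost a call, 17 gained one and 6 turned their sign. Leaving out 1 array, Ccne2 ranged from -0.15 to 0.19, Cdc7 from -0.14 to 0.10 and Cdk5rap3 from -0.24 to 0.16. Cdc7 also turned to -0.17 and Kif2b to 0.098 with block medians subtracted, and Wee1 turned to -0.054 with exact zeros kept. None of the 6 was called with either sign. The count of dividing-cell members lower in liver lay between 18 and 19 when 1 array was left out, and was 25 of 28 with probes on at least 2 arrays. Against a 2-fold difference, 28 members were lower and 1 higher, with 15 dividing-cell members lower and 1 resting-cell member on each side. Without moderation of the variance 39 members were lower and 6 were higher. The dividing-cell members were then 15 lower, and the resting-cell members 2 lower and 1 higher. With exact zeros kept as ratios of 1, 35 of 123 members and 15 of 43 dividing-cell members were lower. The resting-cell members were then 2 lower and 2 higher of 13. The dividing-cell median was -1.01 over 43 genes, the resting-cell median -0.17 and their difference -0.84. Zeros let in pull these medians towards 0 by construction. Leaving out 1 array, the resting-cell median lay between -0.48 and -0.28 and the difference between -2.09 and -1.70. The resting-cell median was -0.34 with probes on at least 2 arrays, and also without Kif2a. Read as natural logs, the median of dividing-cell members was -3.19, the median of resting-cell members -0.60 and the median difference of dividing-cell and resting-cell members -2.59. Without intensities, no limit from weak signal can be given.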

Other observations

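Spots of one sequence record did not always repeat. Cdk5rap3, a protein first found as a partner of a Cdk5 activator, had 2 probes of the same record: one stood at -0.26, -0.47 and -0.41 on arrays 1, 2 and 3, the other at -1.01, 0.80 and 0.73. Cdc20 had 2 probes of 1 record with a ratio on every array, and their means, -3.20 and -3.12, were 0.079 apart. Its other probes of that record were at exact 0 on every array. The 4 spots of Ccnl1 lay between -0.68 and -0.20.

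Some members had no ratio at all. Of the 123 member symbols 22 were at exact 0 on every array on all probes. These included 11 of the 43 dividing-cell symbols and 2 of the 13 resting-cell symbols. The share over all 7984 symbols was not counted, so these counts do not set the dividing-cell genes apart. The labels do not say how these zeros arose.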
